A study of Homo sapiens with 6 samples.

Results

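The replication-dependent histone genes encode the linker histone H1 and the core histones H2A, H2B, H3 and H4 that package newly copied DNA. They were taken by gene symbol, as the protein-coding genes H1-1 to H1-6 and all protein-coding genes whose symbols start with H2AC, H2BC, H3C or H4C followed by a digit. This gave 70 genes, of which 66 had counts, out of 58243 genes counted in all. The readout was 4sU-seq, which is meant to capture nascent RNA, in A375, a human melanoma cell line. The study named low-level mRNA carry-over as a possible confounder and turned to intronic reads for later analysis. Most histone genes have no introns, and the counts used here are of reads on exons. Older RNA carried over therefore cannot be told apart from newly made RNA. The EV group was 3 libraries (B1, B2 and B3) of A375 cells stably transfected with an empty vector, and the PRL3 group was 3 libraries (B9, B10 and B11) of A375 cells stably transfected with a human PRL3 expression plasmid, which carries an HA tag by the study's methods. PRL3 is a phosphatase encoded by PTP4A3. Both lines were kept in 100 µg/ml hygromycin B, and both were pulsed for 20 min with 500 µM 4-thiouridine (4sU), a uridine analog that is built into RNA made during the pulse, so that the labelled RNA could be biotinylated and purified. Each group was a single stable line, and whether it was a clone is not stated in the sources used here. Nothing states either that the 3 libraries of a group came from separate cultures, so p-values measure the spread between these libraries, which may be technical. The study asked how PRL3 alters transcription, and the histone genes were compared between PRL3 and EV by histone type and by genomic cluster.

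Replication-dependent histone genes are transcribed mainly in S phase, when chromatin has to be assembled on new DNA. Each nucleosome holds a pair of each core histone around which DNA is wrapped, and H1 binds outside this core. Most of the genes lie in a few clusters, have no introns, and give mRNAs that end in a conserved stem-loop instead of a poly(A) tail. The stem-loop is bound by SLBP, which guides 3′ end processing, and NPAT, the coactivator of histone transcription, gathers with the genes in nuclear histone locus bodies. The number of cells in S phase and the amount of histone RNA made per cell cannot be told apart in these bulk libraries, and the study's separate assays of growth and cell cycle were not analysed here.

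The stem-loop differed between H4, which was the one type with a negative median log2 fold change further on, and the other types. A 16-base stem-loop was found within 100 bases after the stop codon in 69 of the 70 genes on GRCh38, all but H2BC12L, and started 23 to 68 bases after it, with a median of 36. The 69 matches were of 10 distinct sequences, and these 4 took in 63 of the genes, with the stem in capitals and the loop in lower case.
Form of 40 genes, none of them H4: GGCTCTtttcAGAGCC
Form of 9 genes, none of them H4: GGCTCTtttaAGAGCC
Form of 10 genes, all of them H4: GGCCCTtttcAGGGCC
Form of 4 genes, all of them H4: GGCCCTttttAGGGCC
All 15 H4 genes had a stem that began GGCCCT, whereas none of the 54 matching genes of the other types did, 53 of them beginning GGCTCT instead. The H1-3 copy lies at chr6:26234217-26234232 on the minus strand and has the first form. The H4C1 copy lies at chr6:26022030-26022045 on the plus strand and has the third form, while the H4C14 copy at chr1:149833032-149833047 on the plus strand has the fourth.

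The promoters also divided by type. In RefSeq promoter sequences on GRCh38, from 250 bases before to 50 bases after the start, 64 of the 70 genes had an entry; H2AC12, H2BC12L, H3C11, H3C12, H4C1 and H4C3 did not. Both strands were searched. The octamer ATTTGCAT, the site of Oct-1, stood in 11 of 16 H2A and 14 of 18 H2B promoters, in 1 of 11 H3 promoters and in no H1 or H4 promoter, against 1.80% of all 27305 promoters. A CCAAT box (CCAAT) stood in all 51 promoters of H1, H2A, H2B and H3 genes but in 3 of 13 H4 promoters, against 35.7% of all promoters. A TATA box (TATAAA) stood in 65.6% of the histone promoters and 12.0% of all. A further pair of motifs were chosen after values had been seen. AAACACA, known from H1 promoters, stood in 6 of 6 H1 promoters and 5.76% of all, and GGTCCG, known from H4 promoters, stood in 12 of 13 H4 promoters and 11.2% of all. No motif contains another, and a match describes the window only.

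The sequences below show what lies upstream of genes that the results turn on. Capitals mark the motifs above on either strand. The first is the shared gap of a divergent H2A and H2B pair with an octamer, from chr6:26216689-26216920. The second, from chr6:27807930-27808172, is the gap of a pair without one. The other sequences are the 200 bases before the start of H1-3 (chr6:26234988-26235187, minus strand), H4C14 (chr1:149832457-149832656, plus strand) and H4C6 (chr6:26240193-26240392, plus strand), all on GRCh38.
H2AC8/H2BC8 gap: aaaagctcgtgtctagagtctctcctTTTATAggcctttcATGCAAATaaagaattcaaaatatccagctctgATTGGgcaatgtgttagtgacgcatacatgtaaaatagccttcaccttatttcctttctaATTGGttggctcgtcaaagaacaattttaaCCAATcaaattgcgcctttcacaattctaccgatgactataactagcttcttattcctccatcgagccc
H2AC13/H2BC13 gap: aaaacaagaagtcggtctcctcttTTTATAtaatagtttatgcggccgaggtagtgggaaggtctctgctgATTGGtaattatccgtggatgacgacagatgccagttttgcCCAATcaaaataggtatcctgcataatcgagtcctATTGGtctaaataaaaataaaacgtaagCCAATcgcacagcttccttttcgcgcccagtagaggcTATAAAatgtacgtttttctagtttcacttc
H1-3 upstream: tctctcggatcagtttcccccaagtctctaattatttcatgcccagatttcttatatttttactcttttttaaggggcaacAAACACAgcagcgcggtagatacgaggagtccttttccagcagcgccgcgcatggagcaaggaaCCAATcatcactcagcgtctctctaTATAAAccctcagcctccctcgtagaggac
H4C14 upstream: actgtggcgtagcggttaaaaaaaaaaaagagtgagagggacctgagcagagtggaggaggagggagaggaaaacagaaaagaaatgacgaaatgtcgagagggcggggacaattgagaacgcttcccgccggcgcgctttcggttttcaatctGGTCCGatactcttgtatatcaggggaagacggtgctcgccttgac
H4C6 upstream: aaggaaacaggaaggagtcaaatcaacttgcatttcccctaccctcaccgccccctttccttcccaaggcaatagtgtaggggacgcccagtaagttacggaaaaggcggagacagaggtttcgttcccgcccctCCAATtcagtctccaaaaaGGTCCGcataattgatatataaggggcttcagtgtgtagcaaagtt
The H1-3 window held a CCAAT box, a TATA box and AAACACA, and both H4 windows held GGTCCG near the start. Of these 2 H4 windows, the one of H4C6 held a CCAAT box and the one of H4C14 did not.

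Reads on genes numbered 36532207 in the shallowest library and 57952035 in the deepest. PTP4A3 was at 161, 212 and 279 normalized counts in EV and at 22328, 28767 and 22065 in PRL3, so the labels matched the transgene. Of 12 melanoma genes, SOX10 and AXL were abundant in every library, whereas the pigment genes MLANA, TYR, TYRP1 and DCT were at 24.1 normalized counts or fewer in each. At an edgeR adjusted p under 0.05, 5 of the 8 tested were lower in PRL3 and none was higher. The 5 (62.5%, beside 22.7% of all genes) were SOX10, AXL, S100B, NGFR and SOX9. SOX10 was at a log2 fold change of -0.85 and AXL at -0.40. The libraries differed by group in ways that reach the histone genes. Reads outside annotated exons were 28.7 to 41.1% of uniquely aligned reads in EV and 62.8 to 69.1% in PRL3, and reads aligned to several places numbered 23.7 to 40.1 per 100 uniquely aligned reads in EV and 9.94 to 15.8 in PRL3. Their part in the results was not tested.

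More histone genes were called higher than lower in PRL3, and 3 of the 4 called lower were H4 genes. Of the 58 genes that passed the low-count filter, 15 were higher in PRL3 (25.9%) and 4 were lower (6.90%) at an adjusted p under 0.05 (edgeR quasi-likelihood test, two-sided, Benjamini-Hochberg over 23884 genes). Over all genes tested, 20% were higher and 22.7% were lower. Over protein-coding genes tested, to which all 58 belong, 15.2% were higher and 31.6% were lower. The higher share was thus near that of all genes and above that of protein-coding genes, the lower share was below both, and neither difference was tested. The median log2 fold change of PRL3 over EV was 0.32 over the 58 histone genes, 0.11 over all genes tested and -0.15 over protein-coding genes tested. Groups did not overlap for 16 of them, with 14 histone genes higher in every PRL3 library than in every EV library, against 29.7% of all genes, and 2 lower, against 26.6% of all genes. These counts depend on scaling. With uniquely aligned reads as library sizes 2 were higher (H2BC6 and H3C6) and 13 lower, 10 of them H4. With library size alone 39 were higher and 2 lower. Calls over all genes moved with these scalings too, as given further on. Without PRL3 B11, 4 were higher (H1-5, H2AC8, H2BC6 and H3C6) and 2 lower, without EV B3 26 were higher, without EV B1 10 were lower, 9 of them H4, and without EV B2 or PRL3 B9 2 were lower.

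**Figure D1:**
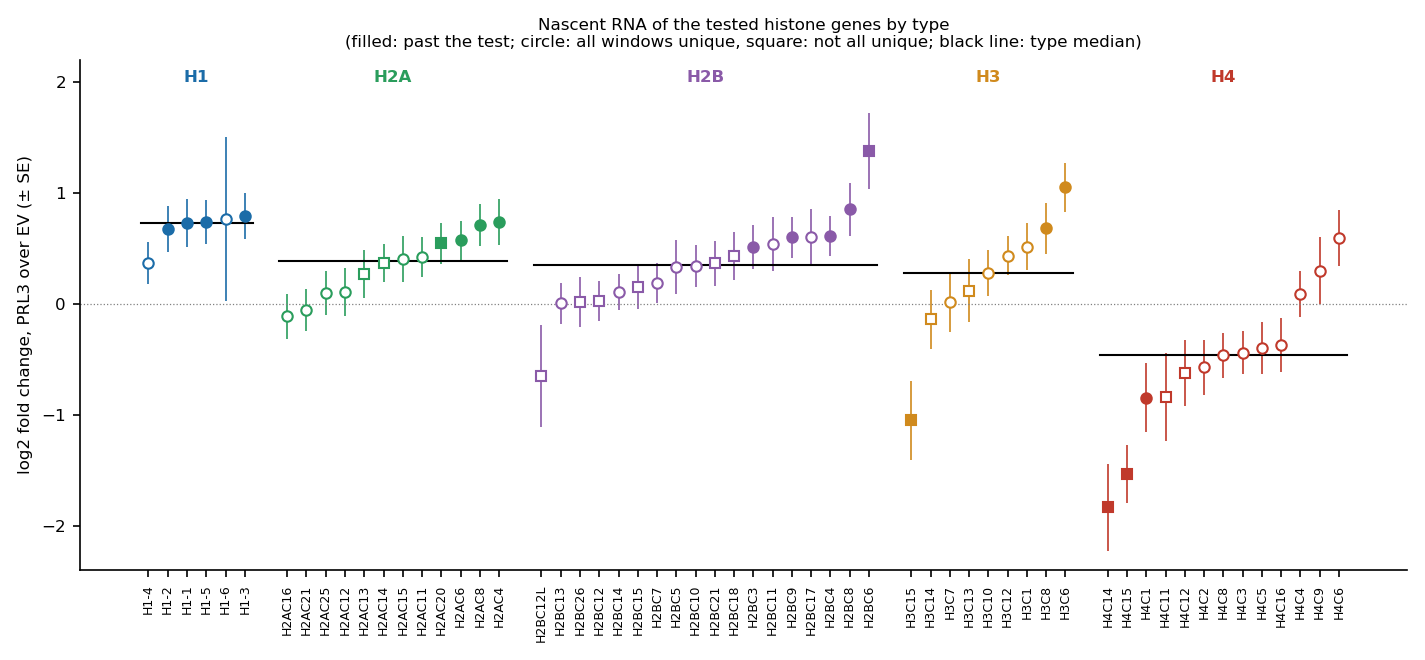
Log2 fold change of PRL3 over EV (points, ± SE) for the 58 tested histone genes, sorted within each histone type, with filled symbols past the test and the black line at the type median. H1 genes sit above 0, with a median of 0.73, and 10 of the 13 H4 genes sit below it, with a median of -0.46.

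The clearest pattern was in the make-up of the histone reads, which does not depend on how libraries are scaled. Of the reads on histone genes, H4 took 27.1, 28.3 and 26.02% in the EV libraries and 15.8, 19.7 and 18.8% in the PRL3 libraries, so that every PRL3 library was below every EV library. H1 took 14.97, 14.3 and 14.9% in EV and 20.2, 17.3 and 19.4% in PRL3, again without overlap and in the opposite direction. The number of H1 reads per H4 read was 0.553, 0.504 and 0.573 in EV and 1.28, 0.882 and 1.04 in PRL3, or 0.543 ± 0.0356 against 1.07 ± 0.201 (SD, n = 3). H2A went from 20.9 ± 0.798% to 23.04 ± 1.14% of histone reads (SD, n = 3) and H2B from 23.9 ± 0.301% to 26.002 ± 0.466%, both without overlap. H3, at 13.3 ± 0.805% and 13.9 ± 0.518%, overlapped between the groups. No test was made of these shares, because they sum over genes chosen with earlier results of these data known.

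**Figure D2:**
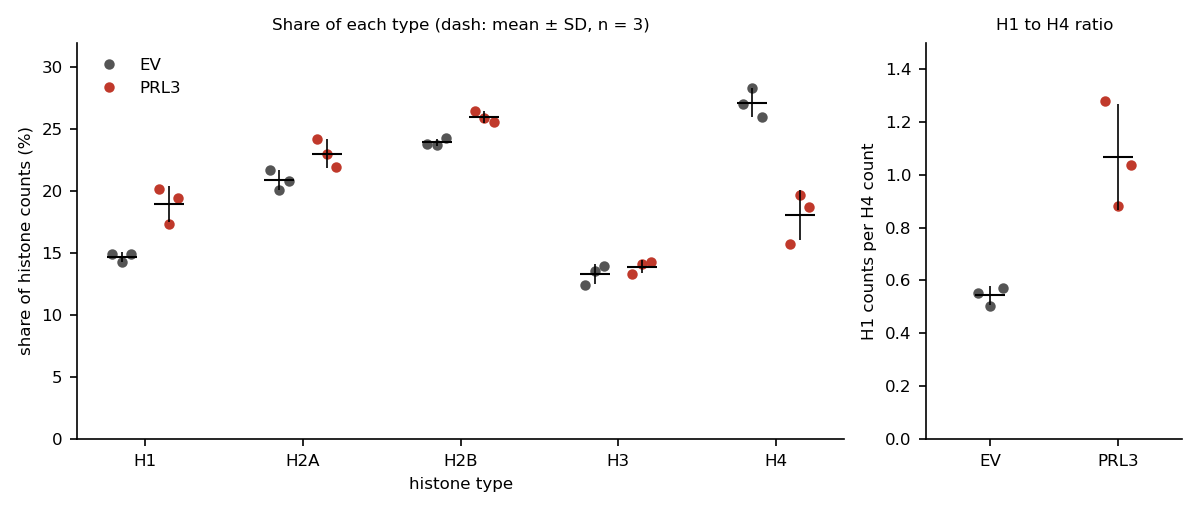
Left, share of all histone counts (%) taken by each histone type in each library, with the dash and bar at the mean ± SD of 3 libraries; right, H1 counts per H4 count. H4 took 26.02 to 28.3% in EV and 15.8 to 19.7% in PRL3, and the H1 to H4 ratio was 0.504 to 0.573 in EV and 0.882 to 1.28 in PRL3.

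The size of the histone total itself was less certain. Histone genes took 0.508, 0.737 and 0.948% of the reads on genes in EV and 1.06, 1.21 and 1.39% in PRL3. Per 1000000 uniquely aligned reads, which include the reads outside exons, the total was 4454 ± 997 in EV and 3857 ± 665 in PRL3 (SD, n = 3), and the groups overlapped. H4 reads on the same scale were 1208 ± 270 in EV and 706 ± 189 in PRL3, with every PRL3 library below every EV library, while H1 reads were 654 ± 142 and 728 ± 103 and overlapped. The order of the types does not depend on scaling, which shifts the log2 fold changes of all genes about alike. It could change with the libraries used, and H1 had the highest and H4 the lowest median log2 fold change of the 5 types in each of the 6 fits that left out a library, with the H1 median above the H4 median by 1.01 to 1.38.

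H1, the linker histone, had the highest median of the types. Of its 6 genes, 4 were higher, H1-1, H1-2, H1-3 and H1-5, which is 66.7%, beside 20% of all genes. The median log2 fold change was 0.73. All 6 had higher normalized counts in every PRL3 library than in every EV library, as did 29.7% of all genes. For H1-6 the margin was 15.5 against 15.6 normalized counts. The H1 reads per 1000000 uniquely aligned reads overlapped, as given above. Normalized counts of H1-3 (ENSG00000124575) were 11913, 16075 and 19083 in EV and 20965, 26556 and 33945 in PRL3. The groups stood apart, and the log2 fold change was 0.79 ± 0.21 (SE; edgeR adjusted p = 0.00781), or 1.73-fold. H1-5, which lies apart from the other H1 genes within the chromosome 6 cluster, was at 5409, 8446 and 9712 in EV and at 12453, 12616 and 14246 in PRL3. Its log2 fold change was 0.74 ± 0.20 (edgeR adjusted p = 0.00828), and it was called in each of the 6 fits that left out a library. H1-1 and H1-3 were called in 5 of these fits and H1-2 in 4, and without PRL3 B11 H1-5 was the only H1 gene called. With uniquely aligned reads as library sizes none of the 4 H1 genes was called, at edgeR adjusted p of 0.258 to 0.472.

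H1-2 was at 11153, 14409 and 19577 normalized counts in EV and at 20119, 22584 and 29297 in PRL3. The lowest PRL3 library was just above the highest EV library, and the log2 fold change was 0.67 ± 0.21 (edgeR adjusted p = 0.0194). H1-4, the H1 gene with the highest level per kb of exon in EV, at 25201 normalized counts per kb, was at 14058, 20937 and 24506 in EV and at 24881, 24969 and 26980 in PRL3. Its log2 fold change of 0.37 ± 0.19 did not pass (edgeR adjusted p = 0.135). H1-6, a testis histone, was at 10.8 to 15.5 normalized counts in EV and 15.6 to 30.0 in PRL3, and its log2 fold change of 0.77 ± 0.74 rests on these few reads.

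H2A and H2B form the dimers that flank the core tetramer of H3 and H4. Of 12 tested H2A genes, 4 (33.3%) were higher, H2AC4, H2AC6, H2AC8 and H2AC20, and none was lower. Their median log2 fold change was 0.38. Of 18 tested H2B genes, 5 (27.8%) were higher, H2BC3, H2BC4, H2BC6, H2BC8 and H2BC9, and none was lower. Their median was 0.35. Over all genes tested, 20% were higher and 22.7% lower, and differences from these shares were not tested. The H2BC3 call was kept in 2 of the 6 fits that left out a library. H2AC8 was at 7030, 8250 and 11554 normalized counts in EV and at 12169, 15666 and 16093 in PRL3, without overlap. Its log2 fold change was 0.71 ± 0.19 (edgeR adjusted p = 0.00951). H2AC4, with the highest log2 fold change of the H2A genes, was at 3377, 3626 and 5129 in EV and at 4873, 7714 and 7643 in PRL3. PRL3 B9 fell within the EV range, and the log2 fold change was 0.74 ± 0.21 (edgeR adjusted p = 0.0114).

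Not every H2A gene followed. H2AC20, the H2A gene with the highest level per kb in EV, at 27014 normalized counts per kb, was at 9737, 13991 and 16306 in EV and at 17441, 20294 and 20689 in PRL3, a log2 fold change of 0.55 ± 0.19 (edgeR adjusted p = 0.0309), called in 3 of the 6 fits that left out a library. H2AC11, next in level at 19606 per kb, was at 7472, 10187 and 11339 in EV and at 11051, 13267 and 14499 in PRL3. These groups overlapped, and the log2 fold change of 0.42 ± 0.18 did not pass (edgeR adjusted p = 0.0737). H2AC16 had the lowest log2 fold change of the type, at -0.11 ± 0.20, with 1869, 2723 and 2104 normalized counts in EV and 2697, 1762 and 1745 in PRL3.

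Among H2B genes, H2BC8 was at 4116, 5232 and 8326 normalized counts in EV and at 8226, 11414 and 12278 in PRL3. PRL3 B9 was just below EV B3, and the log2 fold change was 0.85 ± 0.24 (edgeR adjusted p = 0.0105). H2BC6 had the highest log2 fold change of all histone genes, 1.38 ± 0.34 (edgeR adjusted p = 0.00543), from 56.0, 133.5 and 130.9 normalized counts in EV to 225.5, 282.0 and 328.0 in PRL3. Its annotated transcripts reach 4 exons and 2585 exon bases, and it had 41.3 normalized counts per kb in EV, the lowest of its type. H2BC14, with the highest H2B level per kb in EV at 15063, was at 5614, 7185 and 8349 in EV and at 7056, 7843 and 7871 in PRL3, a log2 fold change of 0.11 ± 0.16 (edgeR adjusted p = 0.637). H2BC12L on chromosome 21 had the lowest log2 fold change of the type, -0.65 ± 0.46 (edgeR adjusted p = 0.277), on 42.7 to 126 normalized counts per library.

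H2A and H2B genes are often laid out head to head around a shared promoter, and the log2 fold changes of such pairs are compared here. There were 12 pairs with starts facing away from each other across a gap of 169 to 250 bases. In 9 pairs both genes were tested, and 5 of their 18 genes were called, all higher. Over all genes tested, 20% were higher and 22.7% lower. The log2 fold changes of the paired genes differed by 0.035 to 0.26, with a median difference of 0.14, against SEs of 0.16 or more for each of these genes. Across the 9 pairs, Pearson's r was 0.88 and Spearman's rho 0.93, given as a description, since all points come from the same 6 libraries, and no comparison was made with unpaired genes. The pair H2AC8/H2BC8 printed above, with an octamer in its gap, was at 0.71 and 0.85. The pair H2AC13/H2BC13, whose gap has none, was at 0.27 and 0.01. Octamers stood in 9 of the 12 gaps, among them that of H2AC12/H2BC12, where the log2 fold changes were 0.11 and 0.02.

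**Figure D3:**
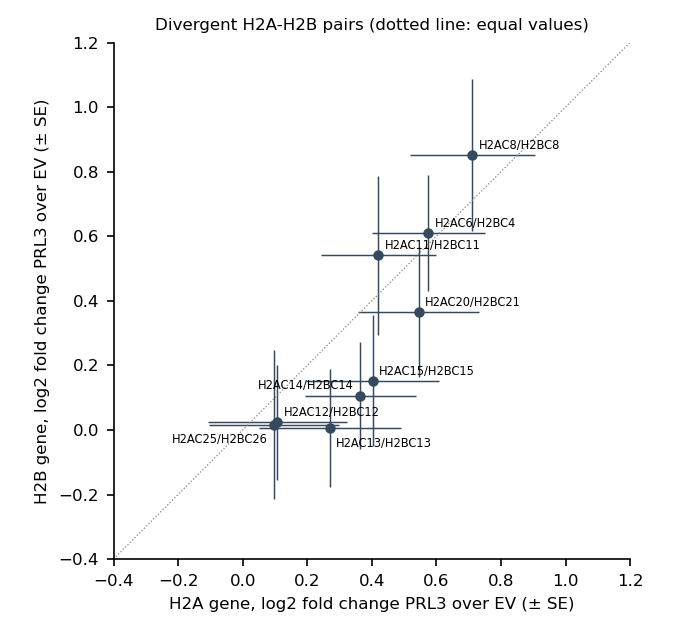
Log2 fold change of PRL3 over EV of the H2A gene (x axis) and the H2B gene (y axis) in the 9 divergent pairs with both genes tested; bars are SEs and the dotted line marks equal values. The pairs run from near 0 for H2AC25/H2BC26 to 0.71 and 0.85 for H2AC8/H2BC8, and the paired values differ by at most 0.26.

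H3, which carries many of the chromatin marks on its tail, showed both directions. Of 9 tested genes, H3C6 and H3C8 were higher, H3C15 was lower, and the median log2 fold change was 0.28. These shares, 22.2% and 11.1%, stand beside 20% and 22.7% of all genes. H3C8 was at 3461, 4776 and 6928 normalized counts in EV and at 6653, 7796 and 9899 in PRL3. PRL3 B9 was below EV B3, and the log2 fold change was 0.68 ± 0.23 (edgeR adjusted p = 0.0277), a call kept in 2 of the 6 fits that left out a library. H3C6 rose more, from 447, 404 and 699 to 942, 1074 and 1207, without overlap, by a log2 fold change of 1.05 ± 0.22 (edgeR adjusted p = 0.00191). Its annotated exons reach 2679 bases, and at 193 normalized counts per kb in EV it was the lowest of the tested H3 genes.

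The most abundant H3 genes per kb in EV did not pass. H3C13, at 34908 per kb, was at 8914, 18808 and 21395 normalized counts in EV and at 12038, 19953 and 21336 in PRL3, almost the same range, with a log2 fold change of 0.12 ± 0.28. H3C12, at 13433 per kb, was at 8982, 12252 and 13343 in EV and at 13357, 16179 and 17134 in PRL3. The groups of H3C12 did not overlap, by a margin of a few counts between EV B3 and PRL3 B9, and the log2 fold change of 0.43 ± 0.18 did not pass (edgeR adjusted p = 0.0627). The exons of H3C12 share 40.3% of their bases with H2AC17 on the same strand, so reads there could be counted as ambiguous and left out. H3C15 was at 321.5, 1006 and 416.5 in EV and at 278.0, 234.4 and 329.1 in PRL3. The log2 fold change was -1.05 ± 0.35 (edgeR adjusted p = 0.0284). EV B2 was far above the rest, the other values lie between 234.4 and 416.5, and the call was kept in 2 of the 6 fits that left out a library.

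H4, the partner of H3 in the core tetramer, was the one type with a negative median. Of its 13 tested genes, 3 were lower (H4C14, H4C15 and H4C1), which is 23.1%, close to the 22.7% of all genes and below the 31.6% of protein-coding genes, none was higher, and the median log2 fold change was -0.46. H4C1 (ENSG00000278637) was at 2124, 4031 and 4843 normalized counts in EV and at 1135, 2718 and 2267 in PRL3. EV B1 fell within the PRL3 range, the log2 fold change was -0.85 ± 0.31 and the call was narrow (edgeR adjusted p = 0.0420), kept in 2 of the 6 fits that left out a library, with adjusted p from 0.00647 to 0.173. H4C2, the histone gene with the highest level per kb in EV, at 61568 normalized counts per kb, was at 16159, 26854 and 28652 in EV and at 10950, 20958 and 16294 in PRL3. The groups overlapped through EV B1, and the log2 fold change of -0.57 ± 0.25 did not pass (edgeR adjusted p = 0.0764). H4C5, next in level at 44117 per kb, was at 12224, 19325 and 22980 in EV and at 9762, 15662 and 15931 in PRL3, a log2 fold change of -0.40 ± 0.23 (edgeR adjusted p = 0.191).

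The H4 genes with positive values were H4C6, H4C9 and H4C4, at log2 fold changes of 0.59, 0.30 and 0.09, none past the test. H4C6 was at 6741, 7787 and 12797 normalized counts in EV and at 9595, 13898 and 17733 in PRL3, with PRL3 B9 inside the EV range (log2 fold change 0.59 ± 0.25, edgeR adjusted p = 0.0725). H4C6 and H4C9 were also the only tested H4 genes of those with a promoter entry to have a CCAAT box. The 9 tested H4 genes without a CCAAT box in the window had a median log2 fold change of -0.57. This split was made after the values had been seen and rests on 2 genes.

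**Figure D4:**
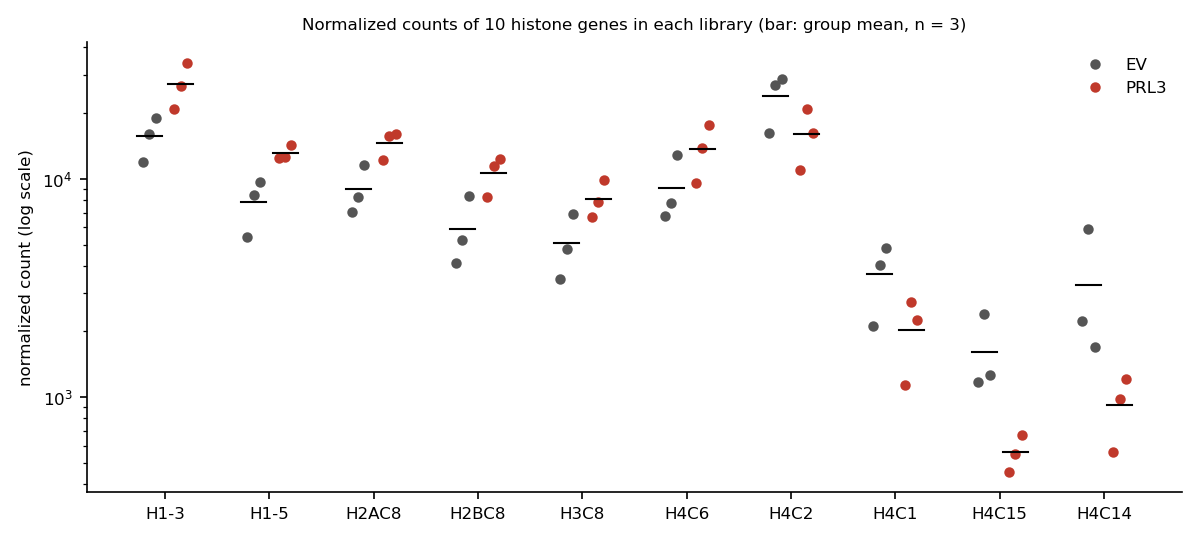
Normalized counts (log scale) of 10 histone genes in each of the 3 EV and 3 PRL3 libraries, with bars at group means. The groups stand apart upwards for H1-3 and H1-5 and downwards for H4C14 and H4C15, whereas those of H4C1, H4C2 and H4C6 overlap.

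The largest falls were in duplicated genes. H4C14 (ENSG00000270882) was at 2237, 5867 and 1689 normalized counts in EV and at 560, 981 and 1205 in PRL3, without overlap, and its log2 fold change was -1.83 ± 0.39 (edgeR adjusted p = 0.00217), or 3.56-fold lower. H4C15 was at 1174, 2406 and 1264 in EV and at 454, 551 and 668 in PRL3, a log2 fold change of -1.53 ± 0.26 (edgeR adjusted p = 0.000456), or 2.89-fold lower. For both, the exact permutation test of the 6 values gave p = 0.1, the smallest that 3 libraries against 3 allow. Both genes were called lower in all 15 other fits, at log2 fold changes from -2.34 to -1.09 for H4C14 and from -2.02 to -1.03 for H4C15. These genes and H3C15 lie in 1q21 in near-identical inverted copies, and every 100-base window of their exons occurs elsewhere in GRCh38, so that only reads resolved by a longer stretch could be counted.

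Reads aligned to several places were fewer in PRL3 than in EV, as given above, and their part in these falls was not tested. Over the 12 tested histone genes with under 80% of windows unique, none was higher and 3 (25%) were lower, with a median log2 fold change of -0.38. Over the 41 with every window unique, 13 (31.7%) were higher and 1 (2.44%), H4C1, was lower, with a median of 0.40. All genes tested were 20% higher and 22.7% lower. The division by type was seen within the unique genes as well. The 9 tested H4 genes with every window unique had a median of -0.40, and the medians of H1, H2A, H2B and H3 genes with every window unique were 0.73, 0.40, 0.52 and 0.47. With H4C14, H4C15, H4C11 and H4C12 thus left aside, 1 of 9 H4 genes was called lower.

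The chromosome 6 cluster held 15 of the 19 called genes and 45 of the 58 tested, which is about the same share. It spans chr6:25723397-27893891 on GRCh38 and holds 55 of the 70 genes. Of its 45 tested genes, 14 were higher (31.1%) and 1 was lower (2.22%), beside 20% and 22.7% of all genes. Their median log2 fold change was 0.37. The cluster at 1q21 had 9 tested genes, of which H2AC20 was higher and H3C15, H4C14 and H4C15 were lower, with a median of -0.05. The pair H2AC25 and H2BC26 at 1q42, H4C16 on chromosome 12 and H2BC12L on chromosome 21 were not called. H4C16, with unique exons, was at 3079, 5596 and 5349 normalized counts in EV and at 2521, 4591 and 3755 in PRL3, a log2 fold change of -0.37 ± 0.24, in the range of the H4 genes of chromosome 6.

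Within chromosome 6 the widest gap between neighbours, 840259 bases, separates a first block of 34 genes (chr6:25723397-26285638) from a second block of 21 (chr6:27125897-27893891). This division was made after the values had been seen. In the first block 13 of 27 tested genes (48.1%) were higher and 1 (3.70%) was lower, with a median log2 fold change of 0.58. In the second block 1 of 18 (5.56%), H1-5, was higher and none was lower, with a median of 0.27. Over all genes tested, 20% were higher and 22.7% lower. For H2A, H2B and H3 genes with every window unique, the medians were 0.59 over 14 genes and 0.34 over 10, with 9 and 0 called higher. H4 genes had negative medians in both blocks, -0.44 over 7 genes and -0.62 over 3. Of these 3, H4C11 and H4C12 have only 9.31 and 8.68% of windows unique. H4C9, with every window unique, was at 0.30, so the second block shows no fall in an H4 gene with unique windows.

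**Figure D5:**
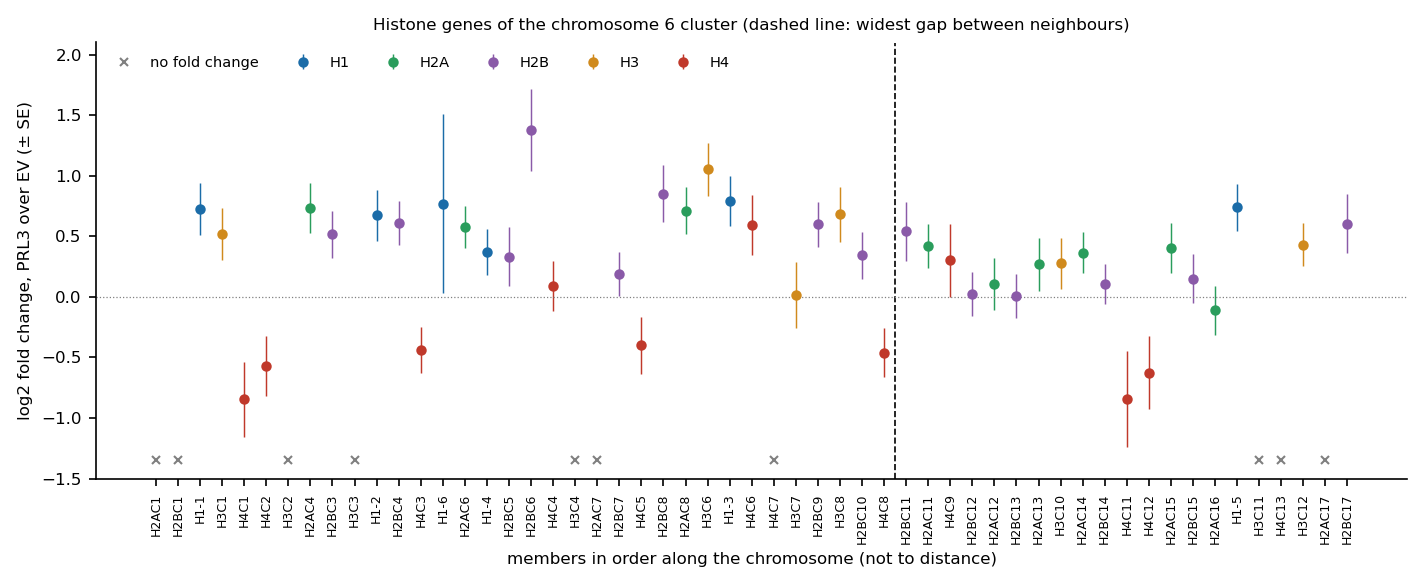
Log2 fold change of PRL3 over EV (± SE) for the chromosome 6 histone genes in their order along the chromosome, coloured by type; crosses mark genes without a fold change and the dashed line the widest gap. Genes called higher lie mostly left of the line, with medians of 0.58 left and 0.27 right of it, and most H4 genes lie below 0 on both sides. Right of the line, the H4 genes below 0 are H4C11 and H4C12, which have few unique windows.

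Other protein-coding genes within the same bounds moved in both directions. Of 20, 15 were tested, and 4 were higher (26.7%) and 2 lower (13.3%), beside 20% and 22.7% of all genes. Their median log2 fold change was 0.19. They include HMGN4, a nucleosome-binding protein, at -1.36 ± 0.21 (edgeR adjusted p = 0.000178), and the zinc finger gene ZNF322 at 1.18 ± 0.26 (edgeR adjusted p = 0.00258).

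The types also differ in length and base composition. Median exon length was 766 bases for tested H1 genes, 496 for H2A, 492 for H2B, 518 for H3 and 403 for H4. Over the 43 tested histone genes with a single exon, the log2 fold change had a Spearman's rho of 0.52 with exon length and of -0.46 with GC content, given as descriptions across genes that share the 6 libraries. Over 41 other single-exon protein-coding genes under 1000 exon bases, 14 were lower (34.1%) and 8 higher (19.5%), with a median of 0.19. Over all genes tested 22.7% were lower and 20% higher, and over protein-coding genes tested 31.6% and 15.2%. The part of length in the difference between types was not tested. Annotated splicing made little difference to the median: 15 tested genes with a spliced transcript in the annotation had a median of 0.33 and 43 without one had 0.30.

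The remaining 12 of the 70 genes have no fold change. H2AC18, H2AC19, H3C2 and H3C3 had no matched identifier and were not analysed here. H2AC1, H2AC7, H2AC17, H2BC1, H3C4, H3C11, H4C7 and H4C13 did not pass the low-count filter, with totals of 0 to 21 reads over the 6 libraries. H2AC1 and H2BC1 form a testis-type pair. H2AC7 and H3C4 share 85.3 and 96.6% of their exon bases with the overlapping gene ENSG00000282988, and H2AC17 shares 71.1% with H3C12, so reads of these genes could be counted as ambiguous or for the other gene. H3C11 and H4C13 were listed at 0 in every library.

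The replacement histones, which are not tied to S phase and mostly come from polyadenylated mRNAs, were mostly lower. All 12 were tested, and 9 were lower (75%, beside 22.7% of all genes) and 1, MACROH2A1, was higher. The median log2 fold change was -1.12. H2AZ1, the variant at promoters, was at 32776, 30970 and 28467 normalized counts in EV and at 6434, 12437 and 10734 in PRL3, a log2 fold change of -1.64 ± 0.21 (edgeR adjusted p = 6.0e-05), while its paralog H2AZ2 was at -0.87 ± 0.16 (edgeR adjusted p = 0.000826). H1-10, a linker histone variant, was at 6580, 12510 and 9176 in EV and at 2861, 4350 and 3220 in PRL3 (log2 fold change -1.44 ± 0.23, edgeR adjusted p = 0.000250). MACROH2A1, a variant with a macrodomain, was at 19021, 20440 and 19469 in EV and at 28877, 28104 and 26656 in PRL3 (log2 fold change 0.51 ± 0.14, edgeR adjusted p = 0.0110). The H3.3 genes H3-3A and H3-3B fell by 1.28 and 1.05 on the log2 scale, and the centromeric H3 variant CENPA, at -0.38, did not pass.

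The genes that act on histone mRNAs and their promoters were called about as often as protein-coding genes in general. Of 25, 8 were lower (32%) and 3 higher (12%), beside 31.6% and 15.2% of protein-coding genes, with a median log2 fold change of -0.01. SLBP, which binds the stem-loops printed above, was at 8767, 7345 and 6083 normalized counts in EV and at 2601, 2911 and 2541 in PRL3, a log2 fold change of -1.46 ± 0.17 (edgeR adjusted p = 2.4e-05). CPSF1, a subunit of the 3′ end processing complex, was at -1.31 ± 0.18 (edgeR adjusted p = 9.0e-05). ZNF473, a zinc finger protein of the U7 snRNP pathway, rose by 0.96 ± 0.16 (edgeR adjusted p = 0.000456) and the uridylyltransferase gene TUT7 by 0.71 ± 0.17 (edgeR adjusted p = 0.00481). HINFP, which binds H4 promoters, was at 1131, 1491 and 1439 in EV and at 1988, 1973 and 1759 in PRL3, a log2 fold change of 0.49 ± 0.16 (edgeR adjusted p = 0.0259). NPAT was at 1556, 877 and 1212 in EV and at 1481, 1299 and 1366 in PRL3, and its log2 fold change of 0.18 ± 0.20 did not pass (edgeR adjusted p = 0.489).

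S-phase genes were mostly lower, and the lower share of histone chaperones was above that of protein-coding genes. Of 22 S-phase genes, SLBP again among them, 15 were lower (68.2%) and 1, CCNE2, was higher (4.55%). Their median log2 fold change was -0.72. MCM7, part of the replicative helicase, was at 45494, 48402 and 41276 normalized counts in EV and at 14426, 19765 and 15616 in PRL3 (log2 fold change -1.44 ± 0.17, edgeR adjusted p = 2.7e-05), while cyclin E2 (CCNE2) was at 1891, 934 and 1095 in EV and at 1870, 1877 and 2219 in PRL3 (log2 fold change 0.61 ± 0.23, edgeR adjusted p = 0.0479). Of 22 chaperone genes, 9 were lower (40.9%) and 2 higher, with a median of -0.38. ASF1B, a carrier of H3 and H4, was at -1.46 ± 0.17 (edgeR adjusted p = 3.1e-05) and SSRP1, a subunit of FACT, at -1.05 ± 0.15 (edgeR adjusted p = 0.000148), while MMS22L, which acts at stalled forks, rose by 0.61 ± 0.17 (edgeR adjusted p = 0.0126) and HJURP, the carrier of CENPA, by 0.44 ± 0.15 (edgeR adjusted p = 0.0287). Of 14 G2/M genes, 7 were lower, from CCNB1 at -1.47 ± 0.17 (edgeR adjusted p = 2.5e-05) and CDC20 at -1.15 ± 0.17 (edgeR adjusted p = 0.000134) to CCNB2 at -0.51 ± 0.15 (edgeR adjusted p = 0.0166), and MKI67 was higher at 0.57 ± 0.18 (edgeR adjusted p = 0.0235), with a median of -0.41. Over all genes tested 22.7% were lower and 20% higher, and over protein-coding genes tested 31.6% and 15.2%. Medians of these lists stand beside 0.11 over all genes tested and -0.15 over protein-coding genes tested, and no test was made over any list.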

How the data were processed

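Per the labels and the study's methods, labelled RNA was depleted of rRNA and made into strand-specific libraries sequenced as paired reads. The authors aligned reads to GRCh38 with STAR 2.5.1b after FastQC 0.11.3, and deposited raw counts per Ensembl gene from HTSeq 0.6.1 in its reverse-strand mode with annotation release 91. Reads aligned to several places are tallied in a summary row of the deposited files and not in the gene counts, which lowers near-identical histone genes. Summary rows stayed out of library sizes.

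Identifiers were matched to GENCODE 44, a later release than the authors' (57532 of 58243 matched, 711 not). PRL3 was compared with EV by edgeR 4.0.16 in R 4.3.3, with TMM scaling, filterByExpr with group, quasi-likelihood test and Benjamini-Hochberg adjustment over 23884 genes at 0.05. This procedure was tested on simulated data. SEs derive from the F statistic. Normalized counts are counts over effective library size times its mean; levels per kb divide them by the union of annotated exon bases. Single genes were also compared by a two-sided exact permutation test, smallest p 0.1 with 3 against 3. No test was made over lists, which are described by counts and medians. Uniqueness is the share of 100-base exon windows found at a single place in GRCh38. Stem-loops and gaps were read from GRCh38, promoters from RefSeq.

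The members and lists were chosen with earlier results of these data known. In each type, the named genes were the 2 with the highest EV level per kb and those with the lowest and highest log2 fold change, all called lower, and from each list the 2 called genes with the lowest and the 2 with the highest log2 fold changes. H1-5, H2AC8, H3C8, H4C9, H4C4, H4C16, NPAT, HINFP, H3-3A, H3-3B, CENPA, HMGN4, ZNF322, other called members, the genes of the named pairs, the pseudogenes and the untested genes were named beside these after their values were seen. Some single genes of the lists are not reported here. Alternatives were RLE, upper-quartile, library-size and uniquely-aligned-read scaling, DESeq2 1.42.0, limma-voom (limma 3.58.1), 2 other filters, protein-coding genes alone, a threshold of 0.01 and each library left out.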

Additional observations from a re-analysis of the deposited data

How the results depend on the processing

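The fold changes follow the scaling, which shifts all genes about alike and so leaves the order of the types as it was. With all uniquely aligned reads as library sizes the median of all genes was -0.36, that of the histone genes -0.15, those of H1, H2A, H2B, H3 and H4 0.26, -0.084, -0.11, -0.18 and -0.93, and those of the chromosome 6 and 1q21 clusters -0.10 and -0.52. With library size alone the same medians were 0.60, 0.79, 1.21, 0.86, 0.83, 0.75, 0.010, 0.85 and 0.43. Relative to the median of all genes in the same fit, H1 was 0.45 to 0.88 higher and H4 was lower, from -0.74 to -0.32, over all 16 fits. The 0.88 and the -0.32 came from the fit of protein-coding genes alone, whose median is over those genes only. The scaling alternatives could move these values little.

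Histone genes called higher and lower numbered 2 and 13 with uniquely aligned reads, 39 and 2 with library size alone, 27 and 2 with upper-quartile scaling, 23 and 8 without a low-count filter (63 genes tested), 5 and 2 at an adjusted p of 0.01, and 27 and 3 with protein-coding genes alone. Leaving out 1 library at a time gave 4 (without PRL3 B11) to 26 (without EV B3) higher and 2 to 10 (without EV B1) lower. Over all genes, 1952 were higher and 8473 lower with uniquely aligned reads, 9514 and 3078 with library size alone, and 2719 higher at 0.01. DESeq2 called 17 and 6 histone genes, limma-voom 20 and 5, and RLE scaling 14 and 4. The cause of these shifts was not tested.

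Among the genes named by level per kb or by rank of log2 fold change, signs turned for 7, none of them called. Other histone genes that were not called turned as well, and no called histone gene did. With uniquely aligned reads H1-4 was at -0.10, H2AC11 at -0.050, H2BC14 at -0.36, H3C12 at -0.039 and H3C13 at -0.34. H2AC16 was at 0.40 with library size alone, 0.074 with protein-coding genes alone and 0.071 with upper-quartile scaling, and ran from -0.34 (without PRL3 B9) to 0.075 (without EV B2) as 1 library was left out, with 0.0074 without PRL3 B11. In the same fits H2BC14 ran from -0.032 (without EV B1) to 0.24 and H3C13 from -0.18 (without EV B1) to 0.34, with -0.025 without PRL3 B11, and H4C5 was at 0.072 with library size alone. No paired analysis was possible because EV and PRL3 libraries have no replicate number in common. Of the 58 histone genes tested, 28 had an unadjusted p under 0.05. Counts of the low H1-6, H2BC6 and H2BC12L limit their precision, and counts of H4C14, H4C15 and H3C15 rest on reads that a 100-base match could not place.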

Other observations

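Some histone pseudogenes, whose symbols are those of histone genes followed by P, were higher in PRL3. Of 13, 7 were tested, and 5 were higher in PRL3 (71.4%) and none was lower, beside 20% and 22.7% of all genes. Their median log2 fold change was 1.03, beside 0.11 over all genes tested. H2BC20P was at 393, 337 and 488 normalized counts in EV and at 952, 862 and 1138 in PRL3, a log2 fold change of 1.27 ± 0.20 (edgeR adjusted p = 0.000260). H2AC5P was at 246, 272 and 436 in EV and at 533, 573 and 672 in PRL3, a log2 fold change of 0.90 ± 0.24 (edgeR adjusted p = 0.00959). H2AC9P was listed at 0 in every EV library and at 21.6, 11.9 and 33.2 in PRL3. The list was described after values had been seen, and H2BC27P, with the widest range in EV, was at 174, 412 and 143 in EV and at 222, 226 and 267 in PRL3.

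ENSG00000282988, which overlaps H2AC7 and H3C4 on their strand, was at 155, 160 and 251 normalized counts in EV and at 490, 445 and 698 in PRL3, a log2 fold change of 1.52 ± 0.27 (edgeR adjusted p = 0.000548). Reads on the bases that H2AC7 and H3C4 share with this gene could be counted as ambiguous and so left out of the gene counts. H2AC7 was at 2.1 normalized counts or fewer in every library while H3C4 was listed at 0 in each.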
